A study of Homo sapiens with 16 samples.

Results

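A set of 30 genes of cholesterol and fatty acid synthesis was followed across human embryonic stem cells treated with control siRNA or siOCT4, the siRNA targeting OCT4, at 2 oxygen levels. They were taken by name from a deposited table of translation ratios, with the condition that a ratio was given in every culture. All 30 listed genes met it, among 15864 genes that did so and 28252 genes in the table. By their roles they comprised 8 enzymes of the mevalonate and prenyl steps, 9 enzymes of the sterol steps from squalene on, 6 regulators and sterol transport proteins, and 7 enzymes of fatty acid synthesis, elongation and desaturation.

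Cells build cholesterol from acetyl-CoA through mevalonate, isoprenoid pyrophosphates, squalene and lanosterol, and they build fatty acids from the same cytosolic acetyl-CoA. The transcription factors SREBP, encoded by SREBF1 and SREBF2, raise transcription of most of these enzymes. SCAP escorts them out of the endoplasmic reticulum when sterols are scarce, and INSIG1 holds the complex back when sterols are plentiful. Squalene epoxidation, lanosterol demethylation and fatty acid desaturation use molecular oxygen as a substrate.

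The cells were H9, an established human embryonic stem cell line, grown in every group without feeder cells in mTeSR1 medium. The 4 groups of 2 cultures were made by crossing siRNA (a control labelled NC, or siOCT4) with oxygen (20%, or hypoxia at 1%); no dose or duration of either treatment was given in the labels. Each culture gave a total RNA library and a library of RNA in ribosome-nascent chain complexes (RNC), 16 libraries in all. The translation ratio is the RNC value of a gene over its RNA value. Within a culture, a higher ratio means relatively more of the transcript in the ribosome-bound fraction. The normalization of the 2 values was not stated, so a ratio of 1 has no known absolute meaning. The median over all tested genes ran from 1.02 to 1.35 across the cultures. Because neither level was available separately, a difference in the ratio can come from the RNC or the RNA side, and the depth behind each ratio is unknown. The 2 cultures of a group may not have been grown separately, and p-values then measure only the spread between these samples.

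All 8 stem cell marker genes examined had a ratio in every culture, but a ratio is not a level and does not test cell identity. POU5F1, which encodes OCT4, had ratios of 0.758 and 0.981 in control cells at 20% oxygen, 1.41 and 1.42 with siOCT4 at 20%, 1.13 and 0.810 in control cells at 1%, and 0.453 and 0.532 with siOCT4 at 1%. These values do not show whether OCT4 RNA was lowered. Identical ratios shared by at least 3 genes of a culture can come from small read numbers. Such values occurred in at least 1 culture for 7777 of the tested genes but for 2 of the 30 studied here, PMVK and STARD4, in 1 culture each.

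The ratio of a gene depended strongly on the base composition of its transcript in 2 of the 4 groups, and the 30 genes spanned transcripts from 34.2% GC (STARD4) to 65.6% GC (MVD). Their median of 51.2% was close to the 49.9% of all tested genes. To show what this range means in coding sequence, a stretch of 90 bases from the middle of the coding region is given for 2 AT-rich and 2 GC-rich members, from the GENCODE 29 transcripts, 5′ to 3′, with G and C in capitals. The stretches cover coding bases 262 to 351 of STARD4 (38.9% GC), 382 to 471 of IDI1 (42.2%), 3721 to 3810 of FASN (65.6%) and 556 to 645 of MVD (62.2%), counted from the A of the start codon.
STARD4: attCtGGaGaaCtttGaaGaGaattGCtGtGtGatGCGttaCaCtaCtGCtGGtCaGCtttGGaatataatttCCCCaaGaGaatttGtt
IDI1: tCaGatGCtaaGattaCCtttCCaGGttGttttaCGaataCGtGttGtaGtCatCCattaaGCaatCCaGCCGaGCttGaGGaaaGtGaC
FASN: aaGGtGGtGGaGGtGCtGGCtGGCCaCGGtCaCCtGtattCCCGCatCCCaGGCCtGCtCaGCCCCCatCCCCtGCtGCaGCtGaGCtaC
MVD: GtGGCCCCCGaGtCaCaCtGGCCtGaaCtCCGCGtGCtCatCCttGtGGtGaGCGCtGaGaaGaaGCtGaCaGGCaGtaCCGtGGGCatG

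Among the 10 members whose transcripts had under 48% GC, the median ratio was 3.67 and 2.86 in the control cultures at 20% oxygen and 2.75 and 2.71 in the siOCT4 cultures at 1%. It was 1.28 and 1.24 with siOCT4 at 20%, and 1.46 and 1.56 in control cells at 1%. The 11 members over 57% GC were low in those 4 cultures, with medians of 0.395 and 0.526 in control cells at 20% oxygen and 0.379 and 0.369 with siOCT4 at 1%. All 11 stayed below 1 there. Their medians were 0.896 and 0.961 with siOCT4 at 20%, and 1.34 and 1.06 in control cells at 1%, where 8 and 7 of the 11 were above 1.

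Across the 30 members, Pearson's r between transcript GC content and log2 ratio was -0.91 and -0.85 in control cells at 20% oxygen and -0.94 and -0.94 with siOCT4 at 1%. With siOCT4 at 20% it was -0.57 and -0.50. The control cultures at 1% differed from each other, with r of -0.021 and -0.58. Over all 15261 tested genes with a GC content the corresponding values ran from -0.83 to 0.016, so the slope was shared with the whole table. These correlations describe genes measured in the same libraries, which are not independent. Each comparison is therefore given on 2 scales: on the ratio as deposited, and GC corrected, as the distance of a gene from the trend of log2 ratio on GC content in its own culture.

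**Figure D1:**
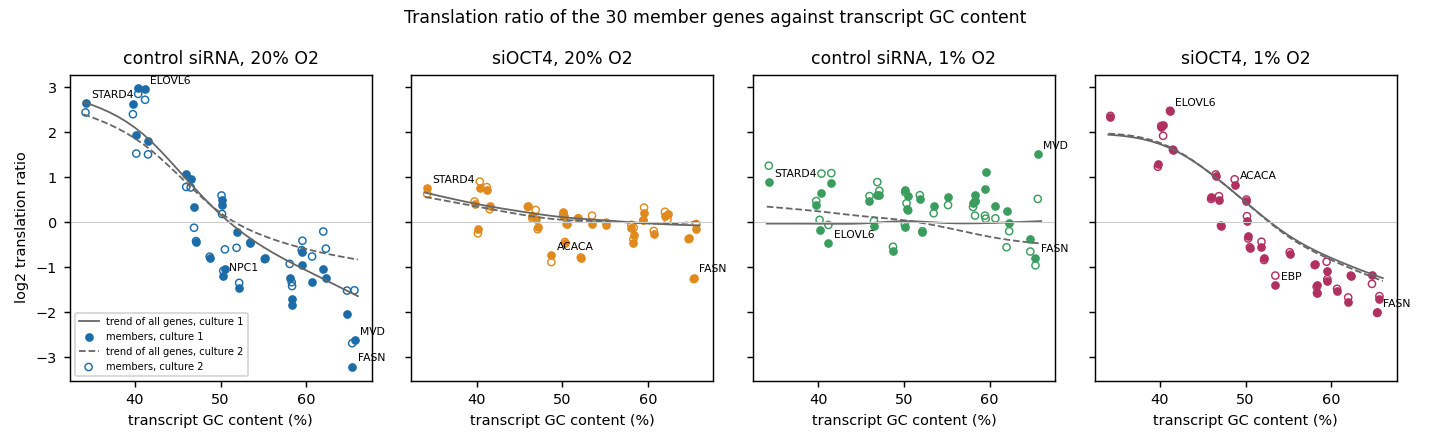
Log2 translation ratio of the 30 genes (y axis) against the GC content of their transcripts in % (x axis) in the 4 groups; filled and open points are culture 1 and culture 2 of a group, and lines are the trend of all tested genes in each culture. The trend falls steeply in control cells at 20% oxygen and siOCT4 cells at 1%, and is shallow in the other 4 cultures.

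The ratios of most members were highest in control cells at 1% oxygen. The group mean there was the highest of the 4 groups for 17 of the 30 as deposited, against 20.5% of all genes, and for 20 of the 30 GC corrected, against 31.2%. These 17 included MVD, LSS, DHCR7, SREBF2, NPC1, FASN and SCD. The median ratio of the 30 was 1.37 and 1.17 in control cells at 1%, against 0.606 and 0.702 in control cells at 20%, 1.00 and 1.04 with siOCT4 at 20%, and 0.680 and 0.710 with siOCT4 at 1%. Over all tested genes the medians had another order, with 1.02 and 1.02 in control cells at 1%, the lowest of the 4 groups, and 1.35 and 1.31 with siOCT4 at 1%, the highest.

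**Figure D2:**
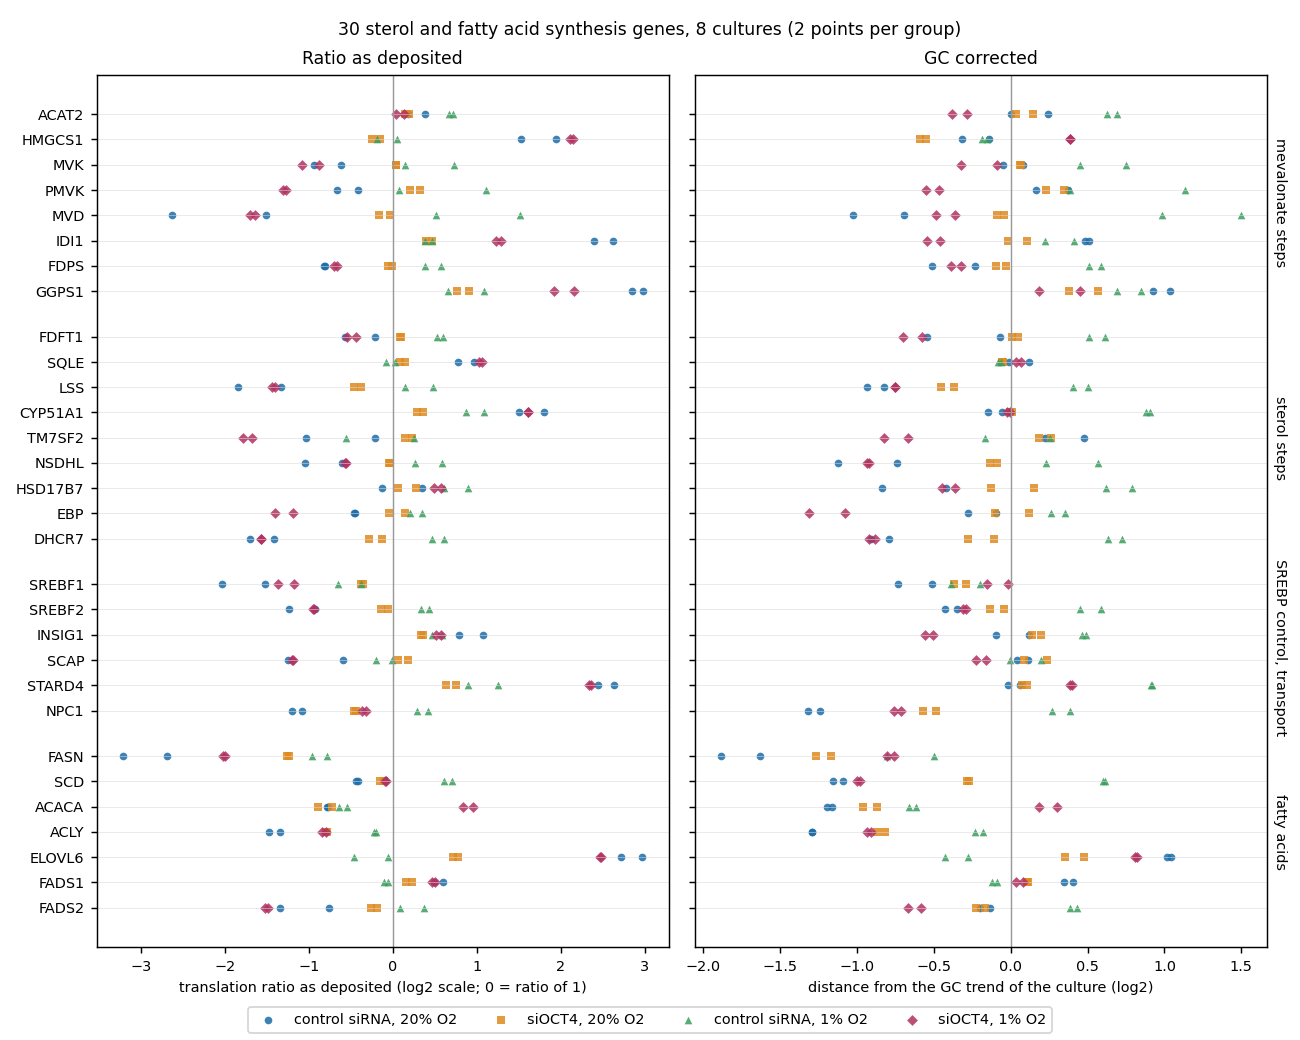
Ratio of each of the 30 genes in the 8 cultures on a log2 scale (left) and its log2 distance from the GC trend of the culture (right), with 2 points per group and genes ordered by role. On the right, the green triangles of control cells at 1% oxygen lie to the right of the other groups for most sterol genes, while ELOVL6, ACACA and HMGCS1 have another order.

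A gene is called here when limma's adjusted p over all tested genes was under 0.05, and differences are log2 ± SE with 2 cultures in each group. The 5 comparisons share groups, so their results are not independent of each other. Between groups the median of all genes itself moved, by -0.09 for siOCT4 at 20% oxygen, 0.42 for siOCT4 at 1%, -0.31 for 1% oxygen in control cells and 0.27 for 1% oxygen in siOCT4 cells. After the GC correction these medians lay between -0.03 and 0.03.

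Most of the set had higher ratios at low oxygen in control cells. As deposited, 19 of 30 members rose and 8 fell from 20% to 1% oxygen, where 20.5% of all genes rose and 39.6% fell. GC corrected, 20 rose and 2 fell, where 23.2% of all genes rose and 23.2% fell. The median member difference was 0.88 as deposited and 0.58 GC corrected, against -0.31 and 0.01 over all genes. On both scales 16 members rose, among them MVD, LSS, NSDHL, DHCR7, SREBF2, NPC1, FASN, SCD and ACLY, and ELOVL6 and FADS1 fell. CYP51A1 and STARD4 were called in opposite directions, lower as deposited and higher GC corrected. With any single culture left out, 16 of the 20 rises and both falls of the GC corrected fit remained called; ACAT2, MVK, EBP and INSIG1 did not.

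siOCT4 at 1% oxygen went with lower ratios for most members. As deposited, 19 of 30 members fell and 9 rose against control cells at 1%, where 19.9% of all genes fell and 41.1% rose. GC corrected, 21 fell and 3 rose, against 22.7% and 21.9%. The median member difference was -0.75 as deposited and -0.87 GC corrected, where all genes had 0.42 and -0.01. HMGCS1, ACACA and ELOVL6 rose on both scales and 16 members fell on both. IDI1, CYP51A1 and STARD4 were called higher as deposited and lower GC corrected. Of the GC corrected calls, those of PMVK, TM7SF2 and STARD4 were lost with a culture left out and the other 21 remained. With length also corrected, SCAP and FASN were called lower too.

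At 20% oxygen siOCT4 made a smaller difference once base composition was taken into account. As deposited, 15 of 30 members rose and 9 fell, where 19.2% of all genes rose and 34.1% fell. GC corrected, LSS, NSDHL, DHCR7, NPC1 and SCD rose and IDI1 and ELOVL6 fell, 5 and 2 of 30, against 7.58% and 8.13% of all genes. Their differences were between 0.47 and 0.85 for the rises and -0.45 and -0.62 for the falls. The median member difference was 0.57 as deposited and 0.18 GC corrected, against -0.09 and -0.03 over all genes. The as-deposited count of 15 dropped to 5 and 4 without replicate 1 or 2 of siOCT4 at 20%, and every GC corrected call was lost in at least 1 fit with a culture left out.

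In siOCT4 cells, 1% oxygen raised 8 and lowered 13 of 30 ratios as deposited, where 37.4% of all genes rose and 21.6% fell. GC corrected, HMGCS1 and ACACA rose and 11 members fell, against 19.1% and 18.1%. The 11 were ACAT2, IDI1, FDFT1, LSS, TM7SF2, NSDHL, EBP, DHCR7, INSIG1, SCD and FADS2, 6 of them sterol enzymes. IDI1 was called higher as deposited, and INSIG1 and SCD had positive differences there without passing the test. The median member difference was -0.30 as deposited and -0.32 GC corrected, against 0.27 and 0.03 over all genes. As deposited, the 13 falls dropped to 8 and 6 without replicate 1 or 2 of siOCT4 at 20% and to 8 without replicate 1 of siOCT4 at 1%. GC corrected, the 11 falls dropped to 5 and 2 without replicate 1 or 2 of siOCT4 at 20%, and to 4 and 5 without those at 1%; HMGCS1, ACACA, EBP and SCD were called with any culture left out. With length also corrected, IDI1 and FDFT1 were not called, SREBF2, SCAP, NPC1 and FADS1 were called lower, and the fall of LSS went from -0.34 to -0.70.

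The effect of siOCT4 differed between the oxygen levels for most members. The interaction, which is the siOCT4 difference at 1% minus that at 20%, was positive and called for 10 members and negative and called for 18 as deposited, against 42.5% and 26.2% of all genes. GC corrected it was positive for HMGCS1, ACACA, ELOVL6 and FADS1 and negative for 19 members, against 22.5% and 21.5%. Its median over the members was -1.46 as deposited and -1.01 GC corrected, and 0.49 and 0.01 over all genes. CYP51A1, INSIG1 and STARD4 were called in opposite directions on the 2 scales. With any culture left out, HMGCS1 and ELOVL6 remained called upward and 16 members downward, while ACACA, FADS1, MVK, PMVK and STARD4 did not. With length also corrected, ACACA, FADS1 and PMVK were not called, and SCAP and FASN were called negative.

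**Figure D3:**
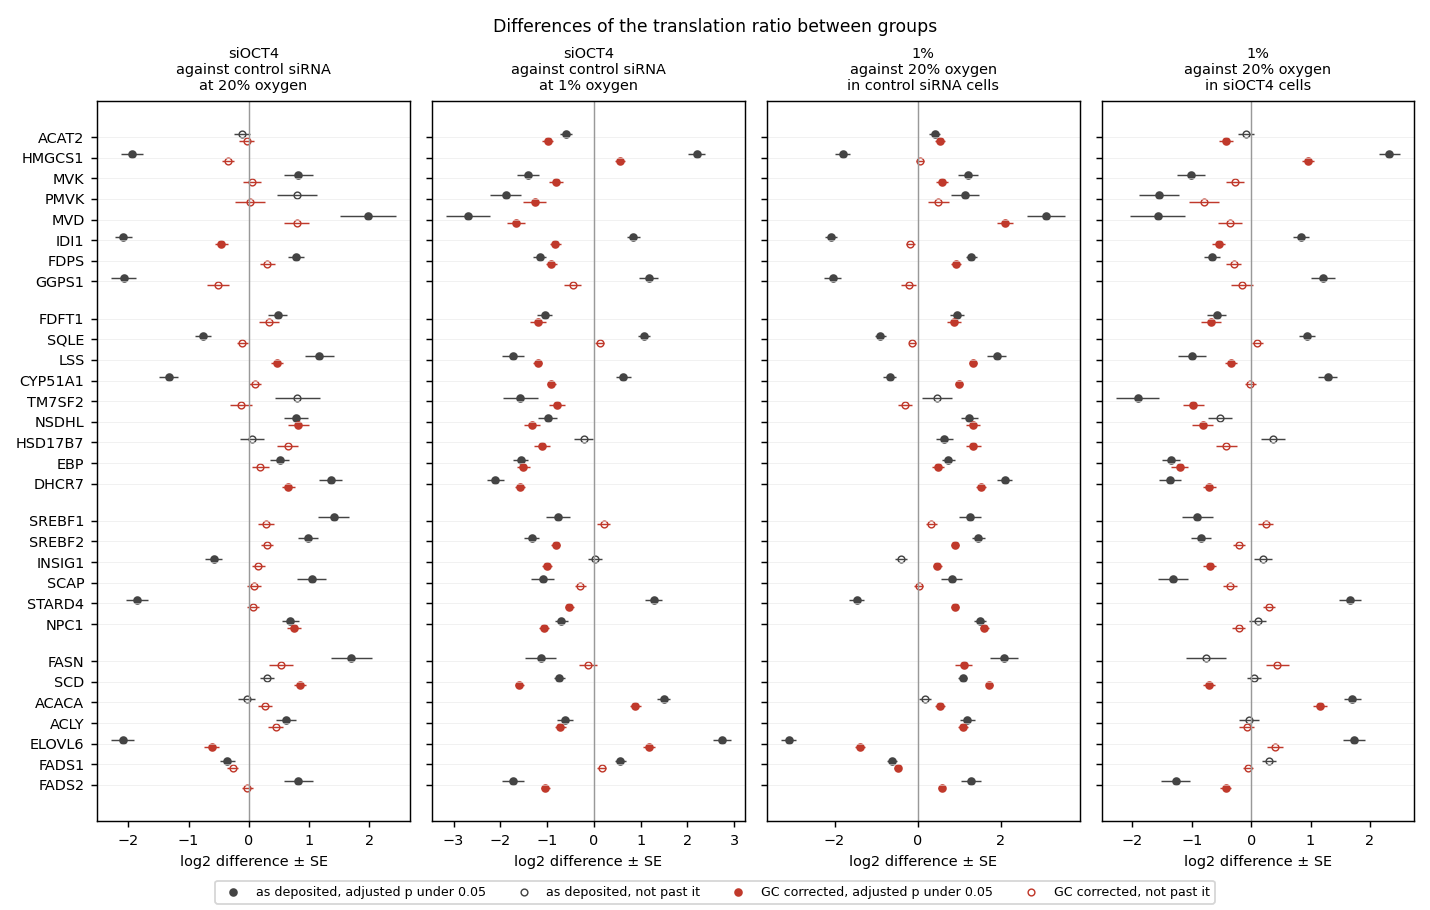
Log2 difference ± SE (x axis) of each of the 30 genes in the 4 pairwise comparisons, as deposited (dark) and GC corrected (red); filled points passed an adjusted p of 0.05. The red points for 1% oxygen in control cells lie mostly to the right of 0 and those for siOCT4 at 1% oxygen mostly to the left, while those for siOCT4 at 20% lie closer to 0.

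The mevalonate steps split by base composition on the deposited scale. MVD, the decarboxylase that yields isopentenyl pyrophosphate, had ratios of 0.161 and 0.350 in control cells at 20% oxygen, 0.896 and 0.973 with siOCT4 at 20%, 2.86 and 1.43 in control cells at 1%, and 0.307 and 0.320 with siOCT4 at 1%. Both control cultures at 1% were above the other 6, and the low groups overlapped. Its rise with low oxygen in control cells was 3.09 ± 0.46 as deposited (adjusted p = 0.00217) and 2.10 ± 0.20 GC corrected (adjusted p = 0.00108). siOCT4 at 1% oxygen lowered it, with a difference of -2.69 ± 0.46 (adjusted p = 0.00377), or -1.67 ± 0.20 GC corrected (adjusted p = 0.00223). The 2 control cultures at 20% differed 2.17-fold for MVD, the widest replicate gap of any member in that group.

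HMGCS1, which makes HMG-CoA, was the mevalonate enzyme that rose with siOCT4 at 1% oxygen on both scales. Its ratios were 3.84 and 2.88 in control cells at 20% oxygen, 0.899 and 0.842 with siOCT4 at 20%, 0.880 and 1.04 in control cells at 1%, and 4.32 and 4.42 with siOCT4 at 1%. The siOCT4 cultures at 1% were the highest. Against control cells at 1% they were higher by 2.19 ± 0.18 (adjusted p = 0.000353), and by 0.56 ± 0.10 GC corrected (adjusted p = 0.00749). Its fall with low oxygen in control cells, -1.80 ± 0.18 as deposited (adjusted p = 0.000462), became 0.06 ± 0.10 GC corrected (adjusted p = 0.655).

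IDI1, the isopentenyl pyrophosphate isomerase, had ratios of 6.15 and 5.29 in control cells at 20% oxygen, 1.32 and 1.38 with siOCT4 at 20%, 1.30 and 1.39 in control cells at 1%, and 2.45 and 2.35 with siOCT4 at 1%. GGPS1, which makes the geranylgeranyl group used to anchor proteins in membranes, had 7.87 and 7.23, 1.70 and 1.87, 1.58 and 2.12, and 4.48 and 3.79 in the same order of groups. Both genes were thus highest in control cells at 20% and the siOCT4 cultures at 20% and control cultures at 1% overlapped. The difference of siOCT4 at 1% oxygen changed sign for IDI1, from 0.84 ± 0.14 (adjusted p = 0.00305) to -0.82 ± 0.11 GC corrected (adjusted p = 0.00311). For GGPS1 it went from 1.17 ± 0.20 (adjusted p = 0.00356) to -0.45 ± 0.18 (adjusted p = 0.0901).

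ACAT2, the cytosolic thiolase at the head of the pathway, had the smallest as-deposited differences among these 8. Its ratios were 1.30 and 1.13 in control cells at 20% oxygen, 1.10 and 1.15 with siOCT4 at 20%, 1.64 and 1.59 in control cells at 1%, and 1.03 and 1.10 with siOCT4 at 1%. Only the control cultures at 1% stood apart. siOCT4 at 1% lowered it, with a difference of -0.60 ± 0.13 (adjusted p = 0.00887), or -0.99 ± 0.12 GC corrected (adjusted p = 0.00237); the as-deposited adjusted p reached 0.0566 with a culture left out. The kinases MVK and PMVK and the farnesyl pyrophosphate synthase FDPS ranged from 0.474 to 1.66, from 0.404 to 2.16 and from 0.565 to 1.48 over the 8 cultures. All 3 fell with siOCT4 at 1% on both scales, with GC corrected differences of -0.81, -1.27 and -0.91. GC corrected, 6 of the 8 mevalonate genes fell in that comparison and HMGCS1 rose, while 4 of 8 rose with low oxygen in control cells. Of all genes, 22.7% fell with siOCT4 at 1% and 23.2% rose with low oxygen in control cells.

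Most of the 9 sterol steps moved in a shared direction. GC corrected, 7 of 9 rose with 1% oxygen in control cells, where 23.2% of all genes rose. The median over the 9 was 1.00. With siOCT4 at 1%, 8 of 9 fell, where 22.7% of all genes fell, and the median was -1.20. The rise was less shared by the 14 other sterol enzymes tested. GC corrected, 5 of these 14 rose and 3 fell with 1% oxygen in control cells, with a median of 0.15. With siOCT4 at 1%, 9 of the 14 fell and 0 rose, with a median of -0.53. DHCR7, a terminal reductase of cholesterol synthesis, had ratios of 0.307 and 0.373 in control cells at 20% oxygen, 0.821 and 0.918 with siOCT4 at 20%, 1.52 and 1.38 in control cells at 1%, and 0.337 and 0.336 with siOCT4 at 1%. LSS, the cyclase that makes lanosterol, had 0.279 and 0.396, 0.727 and 0.768, 1.39 and 1.11, and 0.379 and 0.369 in the same order. For both genes the control cultures at 1% were highest, siOCT4 at 20% came next, and the remaining groups overlapped at the bottom. Low oxygen in control cells raised DHCR7 by 2.10 ± 0.19 (adjusted p = 0.000318) and LSS by 1.90 ± 0.24 (adjusted p = 0.00105), or 1.53 ± 0.11 and 1.33 ± 0.10 GC corrected (adjusted p = 0.000642 and 0.000744). siOCT4 at 1% lowered them, with GC corrected differences of -1.58 ± 0.11 and -1.20 ± 0.10 (adjusted p = 0.001 and 0.00118).

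CYP51A1, the oxygen-dependent lanosterol demethylase, is AT-rich (41.5% GC), and its direction depended on the scale. Its ratios were 3.49 and 2.85 in control cells at 20% oxygen, 1.29 and 1.22 with siOCT4 at 20%, 1.83 and 2.13 in control cells at 1%, and 3.05 and 3.06 with siOCT4 at 1%. As deposited the control cultures at 1% lay below those at 20%, a difference of -0.67 ± 0.16 (adjusted p = 0.0125, and up to 0.0578 with a culture left out). Measured from the GC trend they were the highest of the 4 groups, at 0.91 and 0.88, where the other 6 cultures lay between -0.15 and 0.011. The GC corrected differences were 1.00 ± 0.09 for low oxygen in control cells (adjusted p = 0.00102) and -0.91 ± 0.09 for siOCT4 at 1% (adjusted p = 0.00152).

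SQLE, the squalene epoxidase, also uses oxygen. It ranged from 0.948 to 2.09 and followed the GC trend of each culture, with distances between -0.084 and 0.12 in all 8. Its as-deposited differences were called in all 4 pairwise comparisons, and GC corrected they ranged from -0.13 to 0.12 and did not pass. HSD17B7, a ketoreductase, had ratios of 1.27 and 0.918 in control cells at 20% oxygen, 1.04 and 1.21 with siOCT4 at 20%, 1.53 and 1.86 in control cells at 1%, and 1.41 and 1.49 with siOCT4 at 1%. As deposited, the cultures at 1% were all above those at 20%. The oxygen difference was 0.64 ± 0.21 in control cells (adjusted p = 0.0368) and 0.37 ± 0.21 in siOCT4 cells (adjusted p = 0.168). GC corrected, these were 1.34 ± 0.18 and -0.42 ± 0.18 (adjusted p = 0.00275 and 0.119). The siOCT4 difference at 1% was -0.22 ± 0.21 as deposited (adjusted p = 0.392) and -1.11 ± 0.18 GC corrected (adjusted p = 0.0052). With GC and length corrected it was -0.63 (adjusted p = 0.0371).

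TM7SF2, a sterol reductase, had ratios of 0.487 and 0.866 in control cells at 20% oxygen, 1.10 and 1.17 with siOCT4 at 20%, 1.19 and 0.680 in control cells at 1%, and 0.291 and 0.314 with siOCT4 at 1%. The control replicates were far apart, by 1.78-fold and 1.75-fold, and only siOCT4 at 1% stood below the rest. It fell with siOCT4 at 1%, with a difference of -1.57 ± 0.37 (adjusted p = 0.0118), or -0.79 ± 0.18 GC corrected (adjusted p = 0.015), and low oxygen in control cells gave 0.47 ± 0.37 and, with the sign reversed, -0.31 ± 0.18 GC corrected (adjusted p = 0.309 and 0.196). With a culture left out, the adjusted p of the siOCT4 fall reached 0.0595 and 0.0769 on the 2 scales. The dehydrogenase NSDHL, the isomerase EBP and squalene synthase FDFT1 ranged from 0.486 to 1.50, from 0.379 to 1.27 and from 0.674 to 1.52. Each rose with low oxygen in control cells and fell with siOCT4 at 1% on both scales, the latter with GC corrected differences of -1.33, -1.50 and -1.20.

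Of the regulators, SREBF2, the SREBP most tied to cholesterol genes, moved as most of the 9 sterol enzymes did. Its ratios were 0.426 and 0.526 in control cells at 20% oxygen, 0.909 and 0.961 with siOCT4 at 20%, 1.34 and 1.26 in control cells at 1%, and 0.523 and 0.516 with siOCT4 at 1%. Its order of groups was that of DHCR7 and LSS, with overlap at the bottom. Low oxygen in control cells raised it by 1.46 ± 0.16 (adjusted p = 0.000655), and by 0.91 ± 0.10 GC corrected (adjusted p = 0.00154). siOCT4 at 1% lowered it, with a difference of -1.33 ± 0.16 (adjusted p = 0.00104), and -0.82 ± 0.10 GC corrected (adjusted p = 0.00226).

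SREBF1, whose products act mainly on fatty acid genes, had another order of groups. Its ratios were 0.244 and 0.348 in control cells at 20% oxygen, 0.781 and 0.771 with siOCT4 at 20%, 0.772 and 0.636 in control cells at 1%, and 0.443 and 0.386 with siOCT4 at 1%. All 8 values were below 1. As deposited it was called in all 4 pairwise comparisons, whereas GC corrected the adjusted p was 0.184, 0.248, 0.0903 and 0.197 for siOCT4 at 20%, siOCT4 at 1%, and low oxygen in control and in siOCT4 cells. Its siOCT4 difference at 1% was -0.76 ± 0.26 as deposited and 0.21 ± 0.13 GC corrected, and the as-deposited adjusted p reached 0.181 with a culture left out. The difference between SREBF1 and SREBF2 was not tested.

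INSIG1, which retains SCAP in the endoplasmic reticulum, had ratios of 2.11 and 1.72 in control cells at 20% oxygen, 1.28 and 1.27 with siOCT4 at 20%, 1.39 and 1.50 in control cells at 1%, and 1.49 and 1.43 with siOCT4 at 1%. The ratios were above 1 everywhere and the groups at 1% overlapped. As deposited siOCT4 at 1% gave 0.02 ± 0.15 (adjusted p = 0.926), and GC corrected -1.01 ± 0.11 (adjusted p = 0.00167). SCAP had 0.420 and 0.665 in control cells at 20%, 1.14 and 1.04 with siOCT4 at 20%, 0.995 and 0.871 in control cells at 1%, and 0.435 and 0.439 with siOCT4 at 1%. Its siOCT4 difference at 1%, -1.09 ± 0.25 as deposited (adjusted p = 0.0104), was -0.29 ± 0.12 GC corrected (adjusted p = 0.0915) but -0.57 with GC and length corrected (adjusted p = 0.00835). As deposited, its adjusted p reached 0.0571 with a culture left out.

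The sterol carrier STARD4, the most AT-rich member, had ratios of 6.24 and 5.44 in control cells at 20% oxygen, 1.68 and 1.55 with siOCT4 at 20%, 1.85 and 2.39 in control cells at 1%, and 5.03 and 5.15 with siOCT4 at 1%. It was highest in control cells at 20% as deposited, but its distance from the GC trend was largest in control cells at 1%, at 0.92 and 0.91. The oxygen difference in control cells was accordingly -1.47 ± 0.18 as deposited (adjusted p = 0.000989) and 0.90 ± 0.10 GC corrected (adjusted p = 0.00176). NPC1, which exports cholesterol from lysosomes, had 0.435 and 0.473 in control cells at 20%, 0.726 and 0.737 with siOCT4 at 20%, 1.22 and 1.34 in control cells at 1%, and 0.803 and 0.777 with siOCT4 at 1%. The 4 groups did not overlap for NPC1, and low oxygen raised it in control cells by 1.50 ± 0.14 (adjusted p = 0.000372), or 1.61 ± 0.11 GC corrected (adjusted p = 0.000608). GC corrected, 4 of these 6 genes rose in that comparison, against 23.2% of all genes. With siOCT4 at 1%, 4 of 6 fell, against 22.7%.

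**Figure D4:**
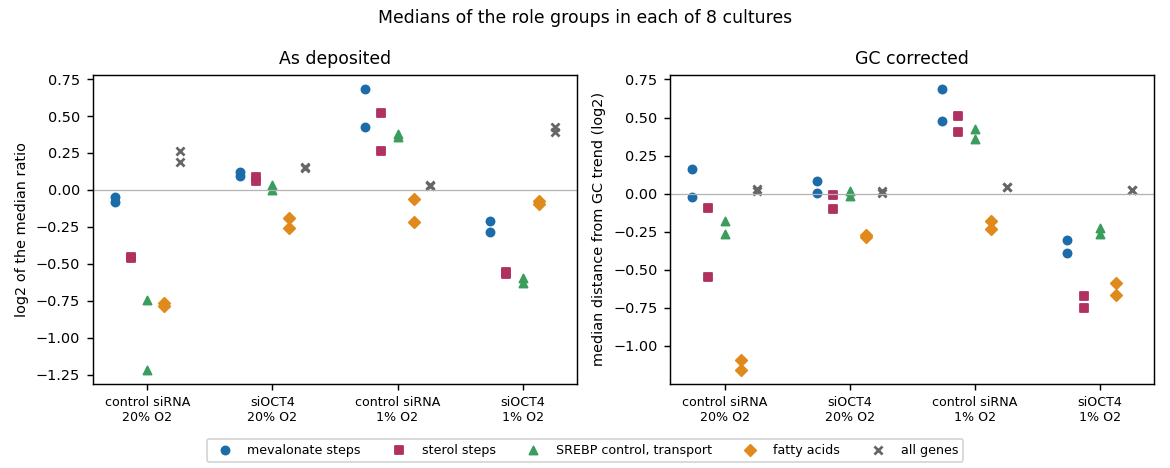
Median ratio on a log2 scale (left) and median log2 distance from the GC trend (right) of each role group and of all tested genes, 1 point per culture. On the right the mevalonate, sterol and regulator medians lie above 0 in both control cultures at 1% oxygen and below 0 in both siOCT4 cultures at 1%, and the fatty acid median is below 0 in all 8 cultures.

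The fatty acid enzymes moved in several directions. FASN, which builds palmitate, had ratios below 1 in every culture: 0.108 and 0.155 in control cells at 20% oxygen, 0.425 and 0.416 with siOCT4 at 20%, 0.580 and 0.514 in control cells at 1%, and 0.250 and 0.247 with siOCT4 at 1%. In the 2 control cultures at 20% these were at the 0.643 and 0.454 percentile of all tested genes. The 4 groups did not overlap, and low oxygen raised FASN in control cells by 2.08 ± 0.34 (adjusted p = 0.00288), or 1.10 ± 0.20 GC corrected (adjusted p = 0.00668). The fall with siOCT4 at 1%, -1.14 ± 0.34 (adjusted p = 0.0279), was -0.13 ± 0.20 GC corrected (adjusted p = 0.623) but -0.71 with GC and length corrected (adjusted p = 0.0243). As deposited, its adjusted p reached 0.127 with a culture left out.

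ACACA, which makes malonyl-CoA for FASN, stood apart with siOCT4 at 1% oxygen. Its ratios there were 1.79 and 1.94, against 0.579 and 0.588 in control cells at 20%, 0.603 and 0.541 with siOCT4 at 20%, and 0.639 and 0.685 in control cells at 1%. As deposited, the values of the other 6 cultures lay close together. Low oxygen in control cells gave 0.18 ± 0.14 as deposited (adjusted p = 0.301) but 0.54 ± 0.12 GC corrected (adjusted p = 0.0127). siOCT4 at 1% raised it by 1.49 ± 0.14 (adjusted p = 0.000469), and by 0.88 ± 0.12 GC corrected (adjusted p = 0.00275). Low oxygen in siOCT4 cells raised it by 1.71 ± 0.14 (adjusted p = 0.000683), and by 1.16 ± 0.12 GC corrected (adjusted p = 0.00291). At 20% oxygen siOCT4 gave -0.03 ± 0.14 as deposited and 0.26 ± 0.12 GC corrected (adjusted p = 0.866 and 0.173). ACACA has the longest transcript of the 30 (9961 bases). With GC and length corrected its rise with low oxygen in control cells was 0.43 (adjusted p = 0.0188). Its other rises were 0.40 for siOCT4 at 1% (adjusted p = 0.0284) and 0.65 for low oxygen in siOCT4 cells (adjusted p = 0.00999). Its interaction, 0.62 GC corrected, was then 0.22 (adjusted p = 0.275).

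ELOVL6, which lengthens palmitate, had ratios of 7.81 and 6.61 in control cells at 20% oxygen, 1.64 and 1.72 with siOCT4 at 20%, 0.726 and 0.958 in control cells at 1%, and 5.54 and 5.58 with siOCT4 at 1%. Its groups did not overlap, and it was lowest where most of the 9 sterol genes were highest. Low oxygen in control cells lowered it, with a difference of -3.11 ± 0.19 (adjusted p = 0.000159), an 8.61-fold change, and -1.38 ± 0.13 GC corrected (adjusted p = 0.00101). siOCT4 at 1% raised it by 2.74 ± 0.19 (adjusted p = 0.000304), and by 1.17 ± 0.13 GC corrected (adjusted p = 0.00175).

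The desaturases did not share a direction. FADS1 had ratios of 1.41 and 1.51 in control cells at 20% oxygen, 1.17 and 1.12 with siOCT4 at 20%, 0.934 and 0.965 in control cells at 1%, and 1.38 and 1.42 with siOCT4 at 1%. FADS2, which acts at another step of polyunsaturated fatty acid synthesis, had 0.395 and 0.589, 0.834 and 0.875, 1.29 and 1.06, and 0.349 and 0.358 in that order, so the control cultures at 1% were lowest for FADS1 and highest for FADS2. With low oxygen in control cells FADS1 fell, with a difference of -0.62 ± 0.12, and FADS2 rose by 1.28 ± 0.24 (adjusted p = 0.0054 and 0.00502), or -0.48 ± 0.09 and 0.58 ± 0.09 GC corrected (adjusted p = 0.00789 and 0.00488). SCD, which introduces the first double bond, ranged from 0.740 to 1.62 and rose in that comparison by 1.08 ± 0.12 (adjusted p = 0.000604), or 1.73 ± 0.09 GC corrected (adjusted p = 0.000438). siOCT4 at 1% lowered SCD, with a difference of -0.74 ± 0.12 (adjusted p = 0.00269), or -1.59 ± 0.09 GC corrected (adjusted p = 0.001).

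ACLY, which supplies cytosolic acetyl-CoA to both pathways, had ratios of 0.361 and 0.392 in control cells at 20% oxygen, 0.577 and 0.581 with siOCT4 at 20%, 0.860 and 0.870 in control cells at 1%, and 0.575 and 0.558 with siOCT4 at 1%. It was below 1 in every culture and highest in control cells at 1%. Low oxygen in control cells raised it by 1.20 ± 0.17 (adjusted p = 0.00164), or 1.09 ± 0.12 GC corrected (adjusted p = 0.00176). In siOCT4 cells the oxygen difference was -0.03 ± 0.17 (adjusted p = 0.882).

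Neighbouring genes of these pathways were read from a further list of 71, of which 69 were tested: other sterol enzymes, isoprenoid branches, SREBP control and sterol transport, and fatty acid supply. With low oxygen in control cells 18 of the 69 (26.1%) rose and 34 (49.3%) fell as deposited, against 20.5% and 39.6% of all genes, and 23 (33.3%) rose and 15 (21.7%) fell GC corrected, against 23.2% and 23.2%. With siOCT4 at 1% 30 (43.5%) rose and 21 (30.4%) fell as deposited, against 41.1% and 19.9%, and 7 (10.1%) rose and 29 (42.0%) fell GC corrected, against 21.9% and 22.7%. The GC corrected medians of these 69 were 0.22 and -0.38, where the 30 members had 0.58 and -0.87. For siOCT4 at 20%, 15 (21.7%) rose and 31 (44.9%) fell as deposited, against 19.2% and 34.1%. GC corrected, 5 rose and 5 fell (7.25% each), near the 7.58% and 8.13% of all genes. For low oxygen in siOCT4 cells, 31 (44.9%) rose and 26 (37.7%) fell as deposited, against 37.4% and 21.6%, and 10 (14.5%) and 22 (31.9%) GC corrected, against 19.1% and 18.1%. The interaction was called positive for 35 (50.7%) and negative for 22 (31.9%) as deposited, against 42.5% and 26.2%, and for 11 (15.9%) and 27 (39.1%) GC corrected, against 22.5% and 21.5%.

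ABCA1, which exports cholesterol from cells, had the largest difference of the 69 for low oxygen in control cells and for siOCT4 at 1%. Its ratios were 4.23 and 3.73 in control cells at 20% oxygen, 0.924 and 0.974 with siOCT4 at 20%, 0.240 and 0.300 in control cells at 1%, and 4.09 and 3.30 with siOCT4 at 1%. It was lowest in control cells at 1%, where most of the 9 sterol members were highest. Low oxygen in control cells lowered it, with a difference of -3.89 ± 0.18 (adjusted p = 0.000152), or -2.92 ± 0.14 GC corrected (adjusted p = 0.000385). ELOVL2, from the fatty acid supply genes, came next and also fell there. Its difference was -3.21 ± 0.33 (adjusted p = 0.000535), or -1.28 ± 0.28 GC corrected (adjusted p = 0.0135). With siOCT4 at 1%, GPAM and ELOVL2 rose by 2.50 and 2.35, the next largest differences after ABCA1. GC corrected these were 0.92 (adjusted p = 0.00221) and 0.68 (adjusted p = 0.0983). ACSS2, which makes acetyl-CoA from acetate, had 0.279 and 0.282 in control cells at 20%, 0.759 and 0.801 with siOCT4 at 20%, 1.80 and 1.90 in control cells at 1%, and 0.502 and 0.542 with siOCT4 at 1%. It rose with low oxygen in control cells by 2.72 ± 0.15 (adjusted p = 0.000153), or 2.47 ± 0.13 GC corrected (adjusted p = 0.000403).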

How the data were processed

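Translation ratios of H9 cells were read from 1 deposited table with 8 columns, each a ratio of the RNC to the RNA value of a gene in a culture, made by the authors. The submitters' processing notes name edgeR and the genome build hg19 without saying what each was used for. No aligner, normalization or read total is stated there, so the depth behind a ratio is unknown. Columns marked sO were read as siOCT4, and NC as control siRNA.

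The log2 ratios of the 15864 genes with a ratio in all 8 cultures were fitted with limma 3.58.1 in R 4.3.3 (4 group means, trended and robust variance, 4 residual degrees of freedom), and p-values were adjusted by Benjamini-Hochberg over all genes at 0.05. For the GC corrected scale, a spline with 6 degrees of freedom on transcript GC content was subtracted in each culture. GC content came from GENCODE 29 (15261 genes, 96.2%), from the coding transcript with the longest coding sequence of each gene. For genes without a coding transcript, the longest transcript was used, and 14185 of the tested genes had a coding one. This annotation is of GRCh38, and its exon and coding coordinates served to place the coding sequence on each transcript. The scripts were tested on simulated data. Alternatives were a GC and length correction, median centring, a replicate block, limma without trend and robust settings, a pseudocount of 0.1, and leaving out each culture; GC corrected fits with a block or a culture left out were added after seeing the data.

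The members and the other gene lists were chosen with earlier results of these data known. Any of the 30 members could be named. Values in all 8 cultures were given for the 2 largest and the smallest log2 difference of each role group in each pairwise comparison, for SREBF1, SREBF2 and INSIG1, and for a few further members, chosen after their values were seen. Up to 3 other pathway genes could be named per comparison. Figures used matplotlib 3.10.9, and tables used pandas 2.3.3, numpy 2.4.6 and scipy 1.17.1 under Python 3.11.15.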

Additional observations from a re-analysis of the deposited data

Results flagged for a closer look

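By the interaction test (limma, adjusted p under 0.05), the siOCT4 effect differed between oxygen levels for 10 members upward and 18 downward as deposited. Of all genes, 42.5% and 26.2% were called in these directions. GC corrected, 4 members were called upward and 19 downward, against 22.5% and 21.5% of all genes. The interaction is the log2 difference at 1% minus that at 20%, as deposited. In the mevalonate steps it was 4.13 for HMGCS1, 2.92 for IDI1 and 3.25 for GGPS1, and -2.24 for MVK, -2.69 for PMVK, -4.67 for MVD and -1.94 for FDPS. In the sterol steps it was 1.83 for SQLE and 1.96 for CYP51A1, and -1.53 for FDFT1, -2.90 for LSS, -2.38 for TM7SF2, -1.77 for NSDHL, -2.08 for EBP and -3.46 for DHCR7. Of the regulators, INSIG1 had 0.60 and STARD4 3.13, whereas SREBF1 had -2.17, SREBF2 -2.31, SCAP -2.13 and NPC1 -1.38. Among the fatty acid enzymes ACACA had 1.52, ELOVL6 4.83 and FADS1 0.91, and FASN had -2.84, SCD -1.04, ACLY -1.23 and FADS2 -2.55. Of these as-deposited calls, 18 were called the same way GC corrected. CYP51A1, INSIG1 and STARD4 were called in the opposite direction. The other 7 were not called GC corrected: IDI1, GGPS1, SQLE, TM7SF2, SREBF1, SCAP and FASN.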

How the results depend on the processing

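GC corrected, the counts that moved by over 1.5 times were 5 higher and 2 lower for siOCT4 at 20% oxygen, 3 higher for siOCT4 at 1%, 2 lower for 1% oxygen in control cells, 2 higher for 1% oxygen in siOCT4 cells and 4 higher for the interaction. With GC and length corrected they were 6, 2, 3, 2, 2 and 2. Median centring, a pseudocount of 0.1 and limma without trend and robust settings left all 10 as-deposited counts within 1.5 times. The replicate numbers were not shown to pair the cultures (correlations of their deviations from -0.233 to 0.0225). With a replicate block the as-deposited count for siOCT4 at 20% was 10 higher and 8 lower. GC corrected with the block it was 2 higher and 0 lower (limma; 9 and 3 at an unadjusted p under 0.05), and the interaction had 2 higher.

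With each culture left out, the as-deposited counts ranged from 4 to 15 higher and 7 to 8 lower for siOCT4 at 20%, 7 to 9 and 14 to 19 for siOCT4 at 1%, 15 to 17 and 7 to 9 for 1% oxygen in control cells, 8 to 8 and 6 to 15 in siOCT4 cells, and 9 to 10 and 18 to 19 for the interaction. GC corrected they ranged from 0 to 5 and 0 to 0, 3 to 3 and 18 to 21, 16 to 20 and 2 to 2, 2 to 2 and 2 to 11, and 2 to 4 and 16 to 20. The 5 rises for siOCT4 at 20% became 1 without control replicate 1 at 20%, 0 and 0 without siOCT4 replicate 1 or 2 at 20% (limma; 7 and 6 at an unadjusted p under 0.05), and 3 and 3 without siOCT4 replicate 1 or 2 at 1%. The 2 falls became 0 without any of the 8 (1 to 5 at an unadjusted p under 0.05).

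Over the 30 members and 5 comparisons, 31 differences changed sign GC corrected and 28 with length added; log2 values are given GC corrected, then GC and length corrected. For siOCT4 at 20%: CYP51A1 0.10 and 0.12, TM7SF2 -0.13 and -0.13, INSIG1 0.16 and 0.17, STARD4 0.069 and 0.10, ACACA 0.26 and 0.18, FADS2 -0.028 and -0.015. For siOCT4 at 1%: IDI1 -0.82 and -0.57, GGPS1 -0.45 and -0.34, CYP51A1 -0.91 and -0.87, INSIG1 -1.01 and -1.02, STARD4 -0.53 and -0.56, SREBF1 0.21 for GC alone and FADS1 -0.055 with length. For 1% oxygen in control cells: HMGCS1 0.059 and 0.088, CYP51A1 1.00 and 1.02, TM7SF2 -0.31 and -0.30, INSIG1 0.47 and 0.48, STARD4 0.90 and 0.92. For 1% oxygen in siOCT4 cells: IDI1 -0.55 and -0.29, GGPS1 -0.15 and -0.037, INSIG1 -0.70 and -0.70, NPC1 -0.21 and -0.52, SCD -0.71 and -1.02, FADS1 -0.054 and -0.30, with CYP51A1 -0.018, HSD17B7 -0.42, SREBF1 0.24 and FASN 0.44 for GC alone and FDPS 0.038 with length. For the interaction: IDI1 -0.37 and -0.11, CYP51A1 -1.01 and -0.99, INSIG1 -1.17 and -1.18, STARD4 -0.59 and -0.66. Median centred, ACACA became 0.044 for siOCT4 at 20%, INSIG1 -0.36 for siOCT4 at 1%, and INSIG1 -0.0637, NPC1 -0.15 and SCD -0.22 for 1% oxygen in siOCT4 cells. With a culture left out, HSD17B7 ranged from -0.18 to 0.29 and ACACA from -0.11 to 0.048 for siOCT4 at 20%, and INSIG1 from -0.037 to 0.072 for siOCT4 at 1%. The cause of the changes with the GC correction was not tested, and the depth behind the ratios is unknown.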

Other observations

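Longer coding sequences among the 30 members went with lower ratios relative to the GC trend in 6 of the 8 cultures. Spearman's rho between coding length and distance from the trend was -0.55 and -0.51 in control cells at 20% oxygen, -0.58 and -0.73 with siOCT4 at 20%, and -0.56 and -0.40 in control cells at 1%. With siOCT4 at 1% it was 0.041 and -0.0011. These are descriptions over 30 genes measured in the same libraries. The relation with coding length was not examined over all tested genes, so it cannot be called particular to this set.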
